A study of Mus musculus with 6 samples.

Results

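The genes described here encode proteins that move water, small solutes and ions across the red cell membrane, with stomatin and carbonic anhydrase 2 beside them. They are Aqp1, Aqp9, Slc2a1, Slc14a1, Slc29a1, Piezo1, Kcnn4, Stom, Xk and Car2, chosen by name, and all 10 were found among the 27179 genes counted. RNA was sequenced from purified erythrocytes of 6 BalB/c male mice. The 3 mutants carried 1 copy of the C587R allele of Nxf1 (Nxf1+/C587R), the gene for the main export receptor of messenger RNA, and the 3 controls were wild-type littermates (Nxf1+/+). Each library came from 1 animal, and each of 3 batches held 1 mutant and 1 wild type, so that mutant 1 and wild type 1 belong to batch 1. The sources used here do not give the ages of the mice or what the batch number stands for. The heterozygous allele is present in every cell of the animal, not in red cells alone.

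A red cell carries oxygen out and carbon dioxide back, and most of its membrane traffic serves that task. Carbonic anhydrase turns carbon dioxide into bicarbonate, which leaves through the anion exchanger, while aquaporins and urea transporters let water and urea cross fast enough for the cell to survive changes in osmolarity. Mechanical stretch opens the Piezo1 cation channel, and the calcium that enters opens the Gardos channel encoded by Kcnn4, through which potassium and then water leave. Circulating red cells have no nucleus, so their own transcripts are those left over from the precursor, and reticulocytes, the youngest circulating cells, hold the most. The libraries also held marker transcripts of other cells, given below.

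Total counts ran from 14636739 to 15790336 per library, and globin transcripts took 88.1% to 89.3% of them. All 13 erythroid marker genes were detected in either genotype. Nxf1 itself had 9, 7 and 11 counts in the mutants and 15, 10 and 20 in the wild types, and its counts do not tell the alleles apart. Some libraries stood apart. Wild type 1 held 366 counts of 14 exocrine pancreas marker genes, where the other 5 libraries held 0 to 2. The mutants held 1709 to 3774 counts of 18 hepatocyte marker genes, against 103 in wild type 1 and 2 in each of wild type 2 and 3. The TMM scaling factors, which edgeR uses to put libraries on a common footing, also differed by genotype, at 0.720, 0.780 and 1.06 in the mutants and 1.23, 1.11 and 1.23 in the wild types. Values below are in CPM, that is, counts brought to one library total, with these factors unless total counts are named.

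No member passed the test between genotypes. The filter on low counts left 7 of the 10 genes for testing and removed Slc2a1, Slc29a1 and Piezo1. At an edgeR adjusted p under 0.05, 0 of the 7 were called, 7.05% of all 2823 genes tested being called (5.99% higher and 1.06% lower in the mutants). At an unadjusted p under 0.05, 2 of the 7 passed, Stom and Aqp9, beside 18.5% of all genes tested, and DESeq2 called 0 members after adjustment and 6.66% of all genes tested. The log2 fold changes, mutant minus wild type, lay below 0 for 5 members and above 0 for 2. Their median was −0.70, and that of all genes tested was −0.06. With total counts in place of TMM the median of all genes tested was −0.53. The 7 members then ran from −1.52 (Kcnn4) to 0.08 (Aqp9), with Aqp1 in the middle at −1.17. In bulk RNA, fewer cells of a type and less RNA per cell cannot be told apart.

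**Figure D1:**
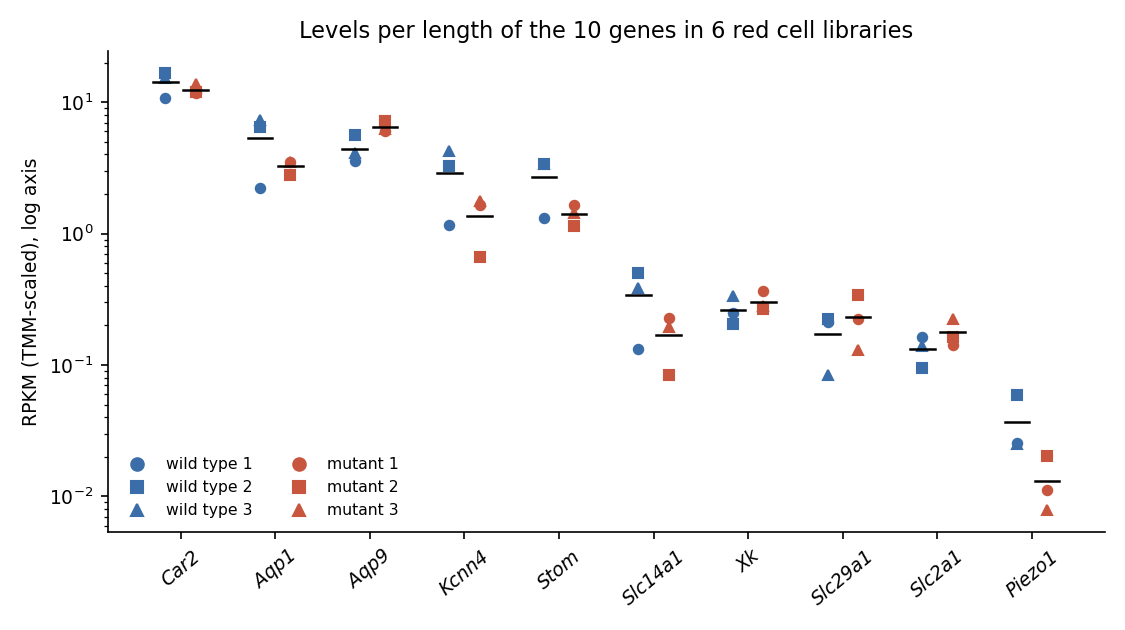
Level of each of the 10 genes in RPKM (TMM-scaled CPM, counts brought to one library total, per kilobase of counted gene length) on a log axis, with 1 point for each library and a bar at each group's mean. Car2 lay highest in both genotypes, with 14.2 RPKM in the wild types and 12.5 in the mutants, and Piezo1 lowest.

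Levels were compared between genes per length, in RPKM, which divides the scaled CPM by the counted length of the gene. In wild type Car2 led with 14.2 ± 3.11 RPKM (SD, n = 3), followed by Aqp1 with 5.33 ± 2.74, Aqp9 with 4.42 ± 1.04, Kcnn4 with 2.89 ± 1.58 and Stom with 2.68 ± 1.19. A step of 7.88-fold separated Stom from Slc14a1, at 0.341 ± 0.190 RPKM, and below it came Xk with 0.264 ± 0.0669, Slc29a1 with 0.173 ± 0.0774, Slc2a1 with 0.133 ± 0.0348 and Piezo1 with 0.0367 ± 0.0197. The ranges of neighbours were apart between Car2 and Aqp1, between Stom and Slc14a1 and between Slc2a1 and Piezo1. All other neighbours in this order overlapped, Aqp1 to Stom as well as Slc14a1 to Slc2a1. For scale, Car2 ranked 167 of all genes per length in the wild types, and Slc4a1, which encodes the anion exchanger band 3, had 22.8 ± 4.63 RPKM.

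The order in the mutants differed in places. Car2 again led, with 12.5 ± 1.09 RPKM (SD, n = 3), but Aqp9 with 6.49 ± 0.669 stood above Aqp1 with 3.26 ± 0.401, and these 3 ranges were apart. Stom with 1.41 ± 0.263 and Kcnn4 with 1.37 ± 0.614 overlapped each other and lay apart from Aqp1 above and from Xk below. Xk with 0.304 ± 0.0519, Slc29a1 with 0.231 ± 0.105, Slc2a1 with 0.177 ± 0.0434 and Slc14a1 with 0.169 ± 0.0756 overlapped as neighbours. Slc14a1 was thus the last of these 4 in the mutants and the first of them in the wild types, and Piezo1 with 0.0132 ± 0.00654 RPKM was last in both genotypes.

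Together the 10 genes took 0.0386%, 0.0407% and 0.0585% of the counts outside the globins in mutants 1, 2 and 3. In wild type 1, 2 and 3 they took 0.0479%, 0.0830% and 0.0831%. The means were 0.0460% ± 0.0109 in the mutants and 0.0714% ± 0.0203 in the wild types (SD, n = 3 each). Counting error was small beside this spread, the 95% Wilson interval for wild type 1 being 0.0448% to 0.0513%. Wild type 1 lay below mutant 3, and the groups overlapped. In every library Car2, Aqp9 and Aqp1 together supplied more counts than the other 7 genes combined.

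The estimates for the water channels had opposite signs, Aqp1 below 0 and Aqp9 above 0, and neither passed the test. Aqp1 encodes the main water channel of the red cell, which also carries the Colton blood group antigen in people, and lies on chromosome 6 (55336299 to 55348555, plus strand, mm10; Entrez gene 11826). Its counts were 105, 92 and 150 in mutants 1, 2 and 3 and 116, 291 and 393 in wild type 1, 2 and 3. These are 9.62, 7.74 and 9.68 CPM against 6.09, 17.8 and 20.2 CPM. On this scale the mutants were close to each other, while wild type 2 and 3 were high and wild type 1 was the lowest library of all 6. With total counts the mutants had 6.92, 6.03 and 10.2 CPM, and wild type 1, at 7.49 CPM, lay within their range. The TMM-scaled means were 9.01 ± 1.11 and 14.7 ± 7.56 CPM (SD, n = 3 each). Aqp1 had a log2 fold change of −0.70 (SE 0.42, 95% interval −1.70 to 0.29, edgeR adjusted p = 0.466). Without wild type 1 it was −1.07 (edgeR adjusted p = 0.00101), and without batch 1 it was also −1.07 (edgeR adjusted p = 0.00657). So 1 library decided whether Aqp1 passed.

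Aqp9 encodes an aquaglyceroporin, a channel for glycerol, urea and other small solutes as well as water, and glycerol uptake into mouse red cells is known to depend on it. The gene lies on chromosome 9 (71110659 to 71167849, minus strand; Entrez gene 64008). It had 173, 228 and 255 counts in the mutants and 180, 242 and 210 in the wild types. Scaled, these are 15.8, 19.2 and 16.5 CPM against 9.45, 14.8 and 10.8 CPM. All 3 mutants lay above all 3 wild types on this scale, as did 12.3% of all genes tested, and the raw counts overlapped. The means were 17.2 ± 1.77 and 11.7 ± 2.76 CPM (SD, n = 3 each). This was a log2 fold change of 0.56 (SE 0.20, 95% interval 0.14 to 0.97), with an unadjusted edgeR p of 0.0113 and an adjusted p of 0.113. Without wild type 2 it was 0.77 (edgeR adjusted p = 0.0355), and without wild type 1 it was 0.43 (edgeR adjusted p = 0.223). With total counts it was 0.08 (edgeR adjusted p = 0.783) and the groups overlapped, so the size of the difference rested on the scaling factors. Against the median of all genes tested Aqp9 lay above on both scales.

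A ratio of these 2 genes within a library needs no scaling factor. Aqp9 had 1.65, 2.48 and 1.70 counts for each count of Aqp1 in mutants 1, 2 and 3. In wild type the ratio was 1.55, 0.832 and 0.534. This ratio, chosen after its values were seen, was highest in the mutants, but wild type 1 lay just below mutant 1 and far from the other wild types.

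Hepatocytes and neutrophils also express Aqp9, and their markers were followed beside it. Of the 18 hepatocyte markers, 15 were called higher in the mutants, and 12 were at 0 counts in every wild type. Their summed level was 157, 317 and 139 CPM in the mutants and 5.41, 0.122 and 0.103 CPM in the wild types. Wild type 2 and 3 still held 242 and 210 counts of Aqp9, with 2 counts of the whole hepatocyte list in each. Over the 6 libraries Aqp9 had a Pearson r of 0.85 with Alb, serum albumin, which was nearly absent from the wild types. Aqp9 was therefore present where the hepatocyte markers were near 0 and also higher, with TMM, where they were high, and the part of hepatocyte RNA in the difference between genotypes was not tested. The 12 neutrophil markers summed to 93.2 to 135 CPM in the mutants and 90.7 to 120 CPM in the wild types, with 0 called. Elane was at 0 in all libraries, Camp in the mutants and Mpo in the wild types. Per 100 counts of Csf3r, the neutrophil growth factor receptor, Aqp9 had 43.8, 60.0 and 33.1 counts in the mutants and 21.9, 39.5 and 36.1 in the wild types, which overlap. Per 100 counts of S100a9, a neutrophil calcium-binding protein, it had 48.2, 54.9 and 36.7 in the mutants and 19.5, 33.9 and 29.0 in the wild types, which do not. These ratios were also chosen after their values were seen, and the part of neutrophil RNA in the difference was not tested.

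Stom, Kcnn4 and Slc14a1 shared the pattern of Aqp1, high in wild type 2 and 3 and low in wild type 1 and all mutants. Stom encodes stomatin, a membrane protein of lipid rafts that binds the glucose transporter and is missing from the membrane in overhydrated hereditary stomatocytosis. It lies on chromosome 2 (35313990 to 35337009, minus strand; Entrez gene 13830). It had 51, 38 and 63 counts in the mutants and 70, 156 and 184 in the wild types, or 4.67, 3.19 and 4.07 CPM against 3.68, 9.52 and 9.48 CPM. Wild type 1 lay inside the mutant range, and the other wild types lay above every mutant. The log2 fold change was −0.92 (SE 0.33, 95% interval −1.64 to −0.21), and the edgeR adjusted p was 0.139. With batch as a term it was −0.84 and passed (edgeR adjusted p = 0.0122), but DESeq2 with the same term did not call it (adjusted p = 0.543). With total counts it was −1.40 and passed (edgeR adjusted p = 0.0144), as the 1 member called there beside 8.68% of all genes called lower, and the groups no longer overlapped, all mutants being lower, as they were for 31.5% of genes tested on that scale. Without wild type 1 it was −1.25 (edgeR adjusted p = 0.00136), and without batch 2 it was −0.56 (edgeR adjusted p = 0.573).

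Kcnn4 encodes the calcium-activated potassium channel of the Gardos effect, and lies on chromosome 7 (24369826 to 24385212, plus strand; Entrez gene 16534). It had 37, 16 and 56 counts in the mutants and 45, 109 and 168 in the wild types. The scaled values were 3.39, 1.35 and 3.61 CPM against 2.36, 6.65 and 8.66 CPM. On this scale mutant 2 was the lowest library and wild type 1 came next, below mutants 1 and 3. With total counts wild type 1, at 2.90 CPM, lay between mutant 1 at 2.44 and mutant 3 at 3.83 CPM. The log2 fold change was −1.07 (SE 0.55, 95% interval −2.40 to 0.26, edgeR adjusted p = 0.392). With batch as a term it was −1.01 and passed (edgeR adjusted p = 0.00948), while DESeq2 with that term gave an adjusted p of 1.00. Without wild type 1 it was −1.44 (edgeR adjusted p = 0.00869), without mutant 2 it was −0.70 and without wild type 3 it was −0.68 (edgeR adjusted p = 0.606 and 0.628).

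Slc14a1 encodes the urea transporter UT-B, which carries the Kidd blood group antigen in people, and lies on chromosome 18 (78100091 to 78142119, minus strand; Entrez gene 108052). Its counts were low, at 10, 4 and 12 in the mutants and 10, 33 and 30 in the wild types. In CPM the mutants had 0.916, 0.336 and 0.775 and wild type 0.525, 2.01 and 1.55. Wild type 2 and 3 again stood above the other 4 libraries, and wild type 1 lay among the mutants. The log2 fold change was −0.98 (SE 0.48, 95% interval −2.02 to 0.05, edgeR adjusted p = 0.300). It was −1.37 without wild type 1 (edgeR adjusted p = 0.0315), −0.59 without wild type 2 (edgeR adjusted p = 0.640) and −0.64 without mutant 2 (edgeR adjusted p = 0.637).

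**Figure D2:**
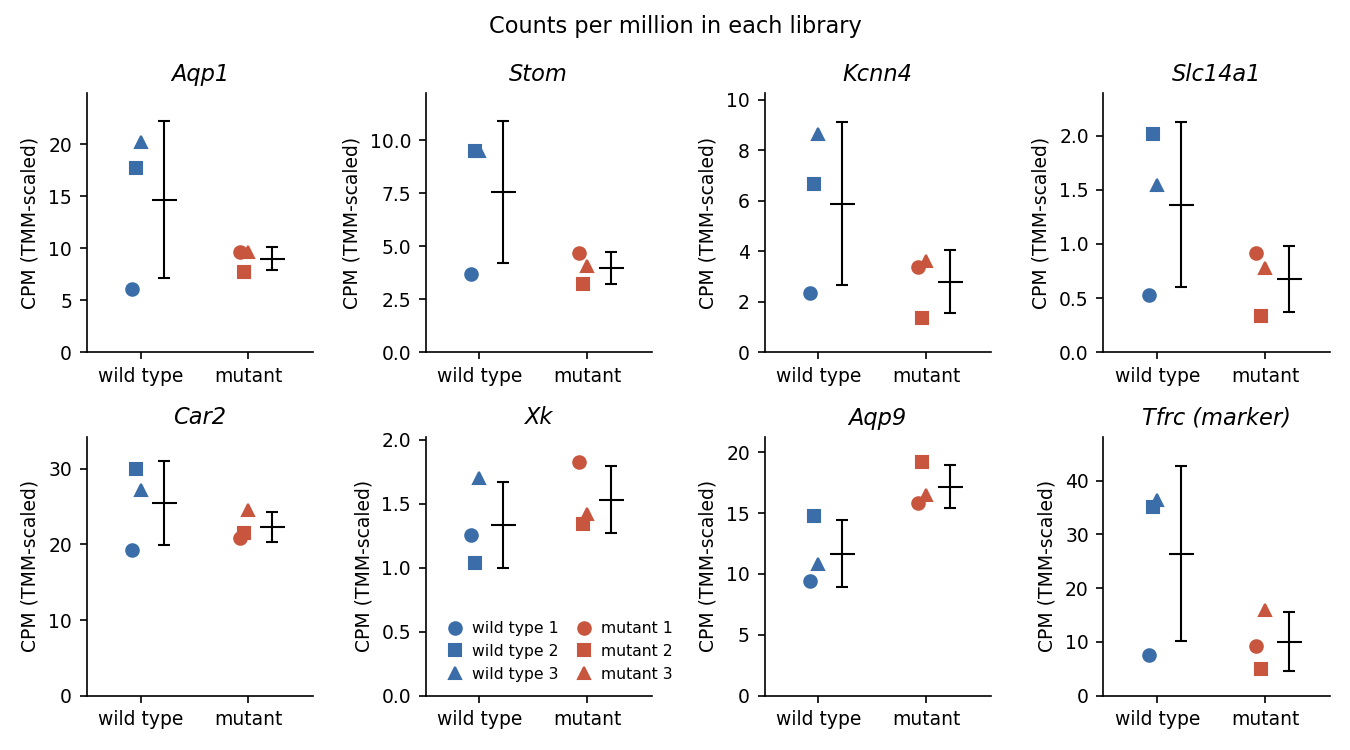
TMM-scaled CPM of the 7 members tested and of Tfrc, 1 of 6 young reticulocyte markers listed, in each library, with the mean and SD of 3 libraries beside the points of each genotype. In Aqp1, Stom, Kcnn4, Slc14a1 and Tfrc wild type 2 and 3 lie above all other libraries and wild type 1 lies near or within the mutants, and in Aqp9 the mutants lie above wild type.

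Counted together, 0 of the 7 tested members were called lower with all libraries and 4 without wild type 1 (Aqp1, Stom, Kcnn4 and Slc14a1), where 2.55% of all genes tested were called lower. The same 4 were called lower without batch 1, where the background was 1.22%. With batch as a term 2 were called lower, beside 2.13% of all genes tested, and DESeq2 with that term called 0 members lower and 0.106% of all genes. With no filter on low counts all 10 members were tested and 2 were called lower (Stom and Kcnn4), beside 0.5% of the 16396 genes then tested. Only 2823 genes pass the filter, as Stom and Kcnn4 do, so this share is not a like background for them. Without wild type 2, 1 member was called higher (Aqp9), beside 5.87% of 3273 genes. These fits share most of their libraries, so they are not separate observations.

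The batches did not share 1 direction for these 4 genes. In batch 1 the mutant was above the wild type by 0.65 (Aqp1), 0.33 (Stom), 0.50 (Kcnn4) and 0.68 (Slc14a1) on the log2 scale. In batch 2 the differences were −1.19, −1.54, −2.20 and −2.20 in the same order, and in batch 3 they were −1.05, −1.20, −1.23 and −0.89. So batches 2 and 3 had the mutant lower for all 4 genes, and batch 1 had it higher for all 4 with TMM scaling but for Slc14a1 alone with total counts (−0.11, −0.42, −0.25 and 0.03 in this order). Aqp9, by contrast, had the mutant higher in all 3 batches with TMM, by 0.74, 0.37 and 0.60, and in 1 of 3 with total counts.

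**Figure D3:**
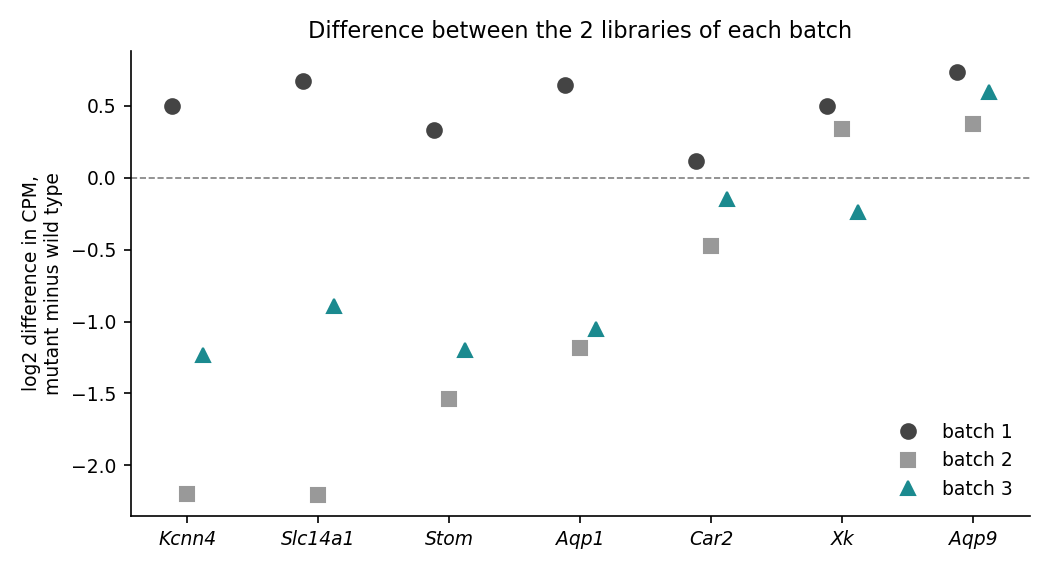
Log2 difference in TMM-scaled CPM between the mutant and the wild-type library of each batch, for the 7 members tested. Kcnn4, Slc14a1, Stom and Aqp1 lie above 0 in batch 1 and below 0 in batches 2 and 3, and Aqp9 lies above 0 in all 3. With total counts batch 1 keeps this sign for Slc14a1 only, and Aqp9 for batch 3 only.

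The transferrin receptor Tfrc, 1 of 6 young reticulocyte markers listed and picked after its values were seen, varied with these genes. It had 100, 60 and 246 counts in the mutants and 145, 577 and 706 in the wild types, or 9.16, 5.04 and 15.9 CPM against 7.62, 35.2 and 36.4 CPM. Wild type 2 and 3 were high and wild type 1 was low, and Tfrc had a log2 fold change of −1.38 that did not pass (edgeR adjusted p = 0.481). Over the 6 libraries the log2 CPM of Tfrc had a Pearson r of 0.92 with Aqp1, 0.94 with Stom, 0.97 with Kcnn4 and 0.94 with Slc14a1. Among the 4 genes r ran from 0.90 to 0.96, and between each of them and Aqp9 from −0.38 to −0.08. These are descriptions of 6 libraries that share genotype, batch and scaling factors. Of the 6 young reticulocyte markers 1 was called lower, Cd24a (log2 −0.63, edgeR adjusted p = 0.0284), and 0 higher. The 6 together summed to 1735 to 2249 CPM in the mutants and 1557 to 1681 CPM in the wild types, with none at 0. Tfrc and Cd24a, at most 36.4 and 137 CPM in any library, were a small part of this sum. The other, more abundant markers set most of it. With TMM all 3 mutants lay above the wild types in this sum, as for 12.3% of all genes tested, and with total counts all 3 lay below, at 1619 to 1836 against 1851 to 2066 CPM, as for 31.5%. The direction of the sum thus turned with the scaling. With TMM it was opposite to that of Tfrc and Cd24a, whose means were lower in the mutants. The part of reticulocyte age in the pattern of the 4 genes was not tested.

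The sequences just upstream of 4 of these genes are shown because 3 of them varied together across libraries and the fourth, Aqp9, did not. Each is the 250 bases before a RefSeq transcript start, 5′ to 3′ on the gene's strand. Capitals mark matches on either strand to CCNCNCCC, a core that erythroid Krüppel-like factors such as KLF1 are known to bind.
Aqp1 promoter, GRCm38.p6 chr6:55336049-55336298, plus strand: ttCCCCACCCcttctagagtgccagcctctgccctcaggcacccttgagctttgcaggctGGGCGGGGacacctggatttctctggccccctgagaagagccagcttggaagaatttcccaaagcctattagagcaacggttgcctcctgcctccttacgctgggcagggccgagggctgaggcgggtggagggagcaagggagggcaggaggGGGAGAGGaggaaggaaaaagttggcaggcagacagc
Stom promoter, GRCm38.p6 chr2:35337010-35337259, minus strand: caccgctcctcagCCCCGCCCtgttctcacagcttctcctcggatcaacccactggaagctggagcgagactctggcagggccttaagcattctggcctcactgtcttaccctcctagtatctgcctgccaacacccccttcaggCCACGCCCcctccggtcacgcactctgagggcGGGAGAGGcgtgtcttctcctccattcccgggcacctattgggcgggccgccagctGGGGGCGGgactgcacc
Kcnn4 promoter, GRCm38.p6 chr7:24370013-24370262, plus strand: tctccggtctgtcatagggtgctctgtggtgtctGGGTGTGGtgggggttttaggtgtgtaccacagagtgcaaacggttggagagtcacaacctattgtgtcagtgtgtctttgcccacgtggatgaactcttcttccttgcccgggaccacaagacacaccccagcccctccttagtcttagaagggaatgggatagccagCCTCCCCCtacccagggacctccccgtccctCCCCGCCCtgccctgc
Aqp9 promoter, GRCm38.p6 chr9:71163290-71163539, minus strand: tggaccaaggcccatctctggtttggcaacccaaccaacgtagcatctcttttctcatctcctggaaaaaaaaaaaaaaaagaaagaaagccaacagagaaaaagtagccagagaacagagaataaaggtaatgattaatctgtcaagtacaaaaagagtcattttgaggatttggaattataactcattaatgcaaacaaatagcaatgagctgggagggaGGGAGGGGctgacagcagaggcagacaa

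The Kcnn4 and Aqp9 windows belong to transcripts that start within the annotated gene, that of Aqp9 being the first of 2 listed starts. CCNCNCCC matched 3 times in the Aqp1 window, 4 times in that of Stom, 3 times in that of Kcnn4 and 1 time in that of Aqp9, and no match overlapped another. It was found in 45.9% of all 32851 RefSeq promoter windows of that length, so its presence is common. The GATA factor motif AGATAA, searched on both strands, was not in these 4 windows, and 9.99% of all windows held it. The Aqp1 match nearest the transcript start began 37 bases before it, that of Stom 17, that of Kcnn4 16 and that of Aqp9 28. These are letter matches in short windows and say nothing of binding. Windows of 8 of the 10 members were searched. Xk, which did not vary with Aqp1, Stom and Kcnn4, had 13 matches of CCNCNCCC, some overlapping. Slc29a1 had 1 to 5 in each of its windows, Slc2a1 had 2, Piezo1 had 1 and the second Aqp9 window had 0. G and C made up 62%, 65.2%, 58.8% and 40.4% of the Aqp1, Stom, Kcnn4 and Aqp9 windows shown. Whether match number goes with the pattern across libraries was not tested. Car2 had no window in RefSeq, and Slc14a1, which varied with Aqp1, Stom and Kcnn4, was left out of the search by choice.

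Car2, the most abundant member, did not pass and had the narrowest interval of the 7 members tested. It encodes the fast cytosolic carbonic anhydrase and lies on chromosome 3 (14886269 to 14900770, plus strand; Entrez gene 12349). It had 228, 256 and 380 counts in the mutants and 367, 492 and 528 in the wild types, or 20.9, 21.5 and 24.5 CPM against 19.3, 30.0 and 27.2 CPM. On this scale the mutants lay between wild type 1, the lowest library, and the other wild types. With total counts the mutants had 15.0, 16.8 and 26.0 CPM against 23.7, 33.4 and 33.4 CPM. Mutants 1 and 2 were then lowest, and wild type 1 lay above them. The log2 fold change was −0.19 (SE 0.19, 95% interval −0.58 to 0.20, edgeR adjusted p = 0.686), an interval that includes 0. With total counts it was −0.65 (edgeR adjusted p = 0.0625), and without wild type 1 it was −0.36 (edgeR adjusted p = 0.238). Its r with Aqp1 over the libraries was 0.92 and with Tfrc 0.91.

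Within a library, Stom had 22.4, 14.8 and 16.6 counts per 100 counts of Car2 in the mutants and 19.1, 31.7 and 34.8 in the wild types. This ratio, again chosen after its values were seen, also placed wild type 1 inside the mutant range. The difference between Stom and Car2 in wild type 2 and 3 was thus present without any scaling factor.

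Xk did not follow the other genes. It encodes a membrane protein bound to the Kell antigen, and its loss causes McLeod syndrome, and lies on the X chromosome (9272784 to 9313245, plus strand; Entrez gene 22439). It had 20, 16 and 22 counts in the mutants and 24, 17 and 33 in the wild types, or 1.83, 1.35 and 1.42 CPM against 1.26, 1.04 and 1.70 CPM. The groups overlapped, and wild type 3 and mutant 1 were the highest libraries. The log2 fold change was 0.18 (SE 0.31, 95% interval −0.46 to 0.83, edgeR adjusted p = 0.838), and with total counts it was −0.31 (edgeR adjusted p = 0.512), so its direction turned with the scaling. Its r with Aqp1, Stom, Kcnn4 and Slc14a1 lay between −0.08 and 0.08.

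**Figure D4:**
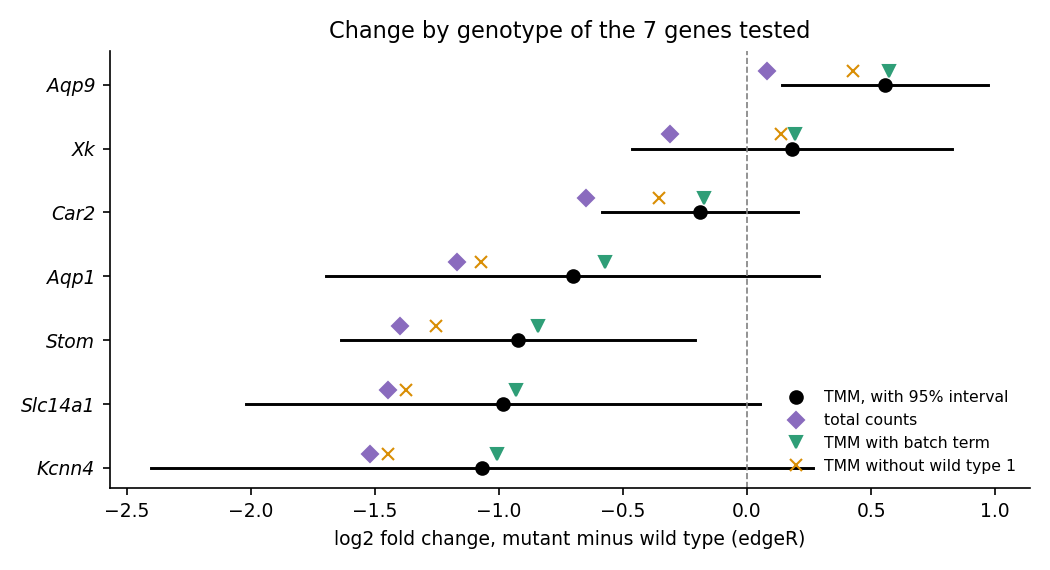
Log2 fold change, mutant minus wild type, of the 7 members tested with its 95% interval (edgeR, TMM), and the same value with total counts, with batch as a term and without wild type 1. The interval of Aqp9 lies above 0 and that of Stom below 0, and total counts move every gene to the left.

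The remaining 3 members were near the detection limit and were left out by the filter. A count of 0 in a library would allow up to 3 counts, or 0.190 to 0.205 CPM of the total. Slc2a1 encodes the glucose transporter GLUT1, abundant in human red cells but known to be lost from adult mouse red cells, and lies on chromosome 4 (119108745 to 119137330, plus strand; Entrez gene 20525). It had 4, 5 and 9 counts in the mutants and 8, 4 and 7 in the wild types, which made the TMM-scaled ratio of counts 1.36 (95% interval 0.671 to 2.73, covering counting error only). With total counts the ratio was 0.967 (0.479 to 1.95), on the other side of 1. No difference was detectable at this depth. Slc2a4, for the insulin-responsive transporter GLUT4, had 2, 3 and 3 counts in the mutants and 0, 5 and 6 in the wild types, so neither glucose transporter was far above the limit.

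Slc29a1 encodes the equilibrative nucleoside transporter ENT1, which takes up adenosine and carries the Augustine blood group antigen in people, and lies on chromosome 17 (45585200 to 45599618, minus strand; Entrez gene 63959). It had 6, 10 and 5 counts in the mutants and 10, 9 and 4 in the wild types. The TMM-scaled count ratio was 1.31 (95% interval 0.688 to 2.47), and with total counts it was 0.932 (0.491 to 1.76), so its direction turned with the scaling and no difference was detectable here either. Exons of Slc2a1 and Slc29a1 overlap those of the antisense genes Gm12868 and Gm17080 by 105 and 275 bases, and reads of the partners cannot be told apart where counting ignores strand.

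Piezo1 encodes the mechanosensitive cation channel whose gain of function causes hereditary xerocytosis, and lies on chromosome 8 (122481698 to 122551329, minus strand; Entrez gene 234839). It had 1, 2 and 1 counts in the mutants and 4, 8 and 4 in the wild types. The mutants were all below wild type in count and in CPM (exact two-sided permutation p = 0.1, the smallest that 3 against 3 allows), as were 11.1% of all genes tested with TMM and 31.5% with total counts. The TMM-scaled count ratio was 0.358 (95% interval 0.0871 to 1.11), and with total counts it was 0.255 (0.0621 to 0.791), both intervals covering counting error only. The interval thus holds a ratio of 1 with TMM and not with total counts. Without a filter edgeR gave a log2 fold change of −1.40 (adjusted p = 0.739). Its exons overlap those of Ctu2 on the opposite strand over 2441 bases, and Ctu2 had 11 counts over all libraries.

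The genes most like each member over the 6 libraries, by Pearson r of log2 CPM among genes with a mean of at least 5 CPM, were found by rule. For Aqp1 they were Cd82 (0.98) and Abcb4 (0.97), for Stom Cd82 (0.99) and Isg15 (0.98), and for Kcnn4 Rbm38 (0.97) and Tfrc (0.97). For Slc14a1 they were Stom (0.96) and Rac2 (0.95). Cd82, a tetraspanin of the cell surface, thus led for Aqp1 and Stom, with 11.3 to 12.2 CPM in the mutants, 10.9 in wild type 1 and 17.3 and 17.2 in wild type 2 and 3. For Aqp9 they were Specc1 (0.99) and Eif5 (0.99), for Car2 Ccni (0.99) and Fam214b (0.98), and for Xk Nusap1 (0.84) and Tln1 (0.81). Specc1 had 161 to 179 CPM in the mutants and 109 to 148 in the wild types, the order of libraries seen in Aqp9.

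A list of 47 other red cell transport genes was read beside the members. Of these 23 were tested, 1 was called higher, 0 lower and 22 neither, and the median log2 fold change was −0.18. The 1 call was Slc7a5, which encodes the large neutral amino acid transporter LAT1. It had 11.0, 10.3 and 10.1 CPM in the mutants and 6.57, 5.49 and 6.80 CPM in the wild types, without overlap, as did 12.3% of all genes tested in that direction. With total counts the groups overlapped, at 7.91, 8.07 and 10.7 against 8.07, 6.12 and 8.36 CPM. Its log2 fold change was 0.74 (SE 0.19, edgeR adjusted p = 0.0200), and the difference was above 0 in all 3 batches with TMM and in 2 of 3 with total counts, batch 1 having −0.03. With total counts it was 0.24 (edgeR adjusted p = 0.453), and the call was also lost without mutant 1 or 2 or wild type 2 or 3 (edgeR adjusted p 0.0602 to 0.104) and without batch 1 or 2 (edgeR adjusted p = 0.0664 and 0.210).

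Slc16a1, for the lactate carrier MCT1, repeated the pattern of Aqp1, with 18, 12 and 28 counts in the mutants and 27, 93 and 73 in the wild types. Its log2 fold change of −1.26 did not pass (SE 0.46, edgeR adjusted p = 0.160), but passed with batch as a term (−1.14, edgeR adjusted p = 0.00751) and without wild type 1 (−1.64, edgeR adjusted p = 0.00218). DESeq2 with the batch term did not call it (adjusted p = 0.525), and it was −0.77 without wild type 2 and −0.54 without batch 2 (edgeR adjusted p = 0.372 and 0.635). Wild type 2 and 3 were again the high libraries. Atp1b3, a sodium pump subunit, had −0.82 (edgeR adjusted p = 0.224), Slc40a1, the iron exporter ferroportin, 0.50 (edgeR adjusted p = 0.254), and Slc4a1 −0.18 (edgeR adjusted p = 0.660). Slc38a5, a glutamine transporter, had 0.17 on the TMM scale, −0.34 with total counts, and was not called on either scale (edgeR adjusted p = 0.751 and 0.233).

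Close relatives of the members, a list of 40 genes of the same families, were mostly too low to test. Of these 11 had 0 counts in every library and 3 were tested, of which 1 was called higher and 0 lower. That gene was Car3, a carbonic anhydrase abundant in liver, muscle and fat, with 21, 66 and 39 counts in the mutants and 0, 0 and 1 in the wild types. The TMM-scaled count ratio was 180 (95% interval 31.8 to 7180, counting error only; edgeR adjusted p = 6.03e-06). The libraries that held it are those with the hepatocyte markers, whose values stand above, and their part in it was not tested. Aqp8, for a water channel known from liver and gut, had 0, 7 and 8 counts in the mutants and 0 in each wild type. The other tested relatives did not pass, Slc2a6 with 0.61 (edgeR adjusted p = 0.502) and Car1 with 0.50 (edgeR adjusted p = 0.515), and Car1, the carbonic anhydrase abundant in human red cells, had 0.665 ± 0.124 RPKM in the wild types. Slc2a5, for the fructose transporter, had 29 counts in wild type 1 and 0 in all other libraries, the library that held the exocrine pancreas markers.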

How the data were processed

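Polyadenylated RNA of purified red cells was sequenced from 3 mutant and 3 wild-type mice. Each library has its own deposited file of unnormalized read counts per gene and the counted length of each gene, per the file headers and the values. The authors' tools were CASAVA 1.8.2, Subread and featureCounts with the mm10 build, per the submitters' processing notes. The annotation, strand setting and treatment of multi-mapped reads are not given in the sources used here. Each library comes from a separate mouse.

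Genotypes were compared in edgeR 4.0.16 (R 4.3.3) by the robust quasi-likelihood F test, with TMM scaling, a filter on low counts (filterByExpr by group), a model with genotype alone, and Benjamini-Hochberg adjustment across the 2823 genes that passed the filter. Calls were made at an adjusted p under 0.05. As alternatives, the comparison was run in DESeq2 1.42.0 and limma-voom (limma 3.58.1), with batch as a term, with RLE factors, total counts or globins removed ahead of scaling, with the filter dropped or set to a mean count of 50, and with each library or batch left out. CPM and RPKM were computed from the deposited counts with TMM-scaled totals. Ratios of low counts carry exact 95% intervals for counting error alone, which leave out variation between animals. The intervals treat reads as independent. Reads without molecular identifiers are not independent molecules, so the intervals may be too narrow.

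The batch label pairs the libraries. Deviations from the group means of same-batch libraries had correlations of −0.116, −0.0855 and −0.0439 over genes. On simulated counts for the 2823 genes tested, the share of changed genes that edgeR recovered was 8% at 1.5-fold, 44% at 2-fold, 100% at 4-fold and 98% at 8-fold, and 3.85% of its calls were false. The changed genes left out those of lowest and highest mean count, and Slc14a1 lay below their range. The simulation also did not carry the difference in scaling factors between genotypes. These shares thus need not hold for every gene tested.

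All 10 members are named. From each list of other genes, the text names up to 4 tested genes of smallest p, every called gene up to 8, and the 3 of highest level per length, with the 2 genes of most like pattern for each member tested. Markers of other cells are given by list. Aqp8, Slc2a4, Slc2a5, Atp1b1, Csf3r, S100a9, Alb, Tfrc and Cd24a were added after their values were seen. The members and all lists were chosen with earlier results of these data known. Gene positions and promoter sequences are from RefSeq on GRCm38.p6, the build named mm10.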

Additional observations from a re-analysis of the deposited data

How the results depend on the processing

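With 3 mice of either genotype, changes near 2-fold were often missed on simulated counts, so missing the threshold does not show that a member is unchanged, and Slc2a1, Slc29a1 and Piezo1 were limited by depth. Aqp1, Slc14a1, Kcnn4 and Stom kept a log2 fold change below 0, and Aqp9 one above 0, under every alternative run. Results that moved are given here, and the cause was not tested.

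Xk changed sign with total counts (−0.31), Car2 without batch 2 (0.0060), and Slc38a5 with total counts (−0.34) and without batch 1 (−0.044; −0.044 to 0.45 with 1 library or batch left out). Kcnn4 and Stom passed with no filter (−1.03 and −0.90, edgeR adjusted p = 0.0229 and 0.0224) and with batch as a term (−1.01 and −0.84), and Stom with total counts (−1.40). In the paired analysis with batch as a block, no other member changed its call. Leaving out 1 library or batch gave −1.07 to −0.38 for Aqp1, 0.43 to 0.77 for Aqp9, −1.56 to −0.27 for Slc14a1, −1.55 to −0.61 for Kcnn4, −1.33 to −0.56 for Stom and −0.36 to 0.0060 for Car2. Members called lower numbered 1 with total counts, 2 with no filter, 2 with the batch block and 0 to 4 with 1 library or batch left out, and members called higher 0 to 1 in the last case (1 without wild type 2).

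Of the other transport genes, 0 were higher with total counts or DESeq2 with the batch block, and 0 to 1 with 1 library or batch left out. Lower were 3 with total counts (Slc16a1, Atp1b3 and Slc4a1), 2 with no filter (Slc16a1 and Atp1b1), 1 with the batch block and 0 to 1 with 1 library or batch left out. Atp1b1 had only 0, 0 and 2 counts in the mutants and 22, 2 and 6 in the wild types. Most lay in wild type 1, the library with the exocrine pancreas markers, whose part in this call was not tested. Of the relatives 2 were higher with no filter (Car3 and Aqp8) and 0 with a mean count of at least 50. Over all genes, 382 were higher with no filter and 66 with a mean count of at least 50, against 169. Lower were 19 with RLE, 245 with total counts, 82 with no filter, 49 with a mean count of at least 50, 11 with DESeq2, 60 with the batch block and 3 with DESeq2 and the block, against 30, and 3 to 77 with 1 library or batch left out. With total counts 115 genes were higher. As a share of all counts the members took 0.00502% in the mutants and 0.00817% in wild type.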
